A study of Mus musculus with 23 samples.

Results

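The genes described are 9 transcripts of the hypoxia response: HIF1A, EGLN1, EGLN3, VEGFA, ADM, BNIP3, ANKRD37, P4HA1 and DDIT4. They were taken by name from the deposited table, which lists the mouse genes under human symbols. Each of the 9 names had 1 expression profile, out of 15881 profiles with values, and all 9 passed the filter on low values. The study profiled 23 RNA sequencing libraries of mouse B lineage cells. Its 14 tumor libraries, 7 of mesenteric lymph node (MLN) and 7 of spleen, came from 8 IL6Myc transgenic mice, which carry IL6 and MYC transgenes and are described by the submitters as an immunocompetent model of aggressive multiple myeloma. The tumors were untreated and labelled as malignant plasma cells. Both sites were sampled in mice 1610, 1611, 1613, 1614, 1615 and 1616, the MLN alone in mouse 1609 and the spleen alone in mouse 1612. Controls were splenic B cells of wild-type Balb/c mice, in 4 untreated (quiescent) libraries and in 5 libraries stimulated with 1 µg/ml lipopolysaccharide (LPS, a bacterial B cell mitogen) for 16 hours (activated). All samples had passed magnetic negative selection for B cells before RNA extraction, so cells that the beads did not catch could remain. The sources used here give neither the ages of the mice nor the promoters of the transgenes.

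HIF1A encodes the oxygen-regulated subunit of hypoxia-inducible factor 1. When oxygen is present, prolyl hydroxylases of the EGLN family mark the protein for recognition by VHL and degradation. When oxygen falls, the protein persists, pairs with ARNT and switches on genes for glucose uptake, glycolysis, blood vessel growth and mitochondrial removal. The control is exerted mainly on the protein, so the HIF1A transcript does not report HIF activity. Several targets also answer to other signals, among them growth factors, LPS and the integrated stress response. Bone marrow, where myeloma grows in patients, is a low-oxygen tissue, and vessel growth driven by VEGFA is a known feature of that disease.

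The factor binds a short core, ACGTG or GCGTG, in hypoxia response elements. The 250 bases upstream of annotated starts were read from RefSeq (build GRCm38.p6, whereas the submitters' processing notes name GRCm39) and searched for both cores on both strands, so that CACGT and CACGC also count. The palindrome CACGTG, also the E-box that MYC binds, holds 2 overlapping matches. Windows of 4 genes are printed as examples. In BNIP3 and ANKRD37 every activated library was above every quiescent library, as in every listed gene except P4HA1. EGLN3 was near 0 outside activated cells and a few tumors, and VEGFA ranged from 3.03 to 325 CPM between tumors. All 4 lie on the minus strand and are written 5′ to 3′ along the gene, with cores in capitals: BNIP3 at chr7:138909507-138909756, ANKRD37 at chr8:45999851-46000100, EGLN3 at chr12:54203875-54204124 and VEGFA at chr17:46032378-46032627.
BNIP3: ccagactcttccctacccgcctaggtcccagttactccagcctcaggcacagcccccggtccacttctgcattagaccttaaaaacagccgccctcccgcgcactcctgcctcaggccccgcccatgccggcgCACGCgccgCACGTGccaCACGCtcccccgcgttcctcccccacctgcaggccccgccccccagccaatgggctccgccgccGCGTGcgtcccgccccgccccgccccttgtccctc
ANKRD37: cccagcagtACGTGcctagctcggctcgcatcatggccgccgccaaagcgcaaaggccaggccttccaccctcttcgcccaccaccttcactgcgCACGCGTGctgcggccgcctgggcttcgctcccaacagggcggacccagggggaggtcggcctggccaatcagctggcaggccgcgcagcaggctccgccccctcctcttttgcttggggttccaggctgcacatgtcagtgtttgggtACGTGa
EGLN3: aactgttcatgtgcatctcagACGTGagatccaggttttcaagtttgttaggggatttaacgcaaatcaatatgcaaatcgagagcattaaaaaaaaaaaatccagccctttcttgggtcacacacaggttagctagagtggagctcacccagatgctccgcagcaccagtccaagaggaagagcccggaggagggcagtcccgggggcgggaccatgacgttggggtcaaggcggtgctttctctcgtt
VEGFA: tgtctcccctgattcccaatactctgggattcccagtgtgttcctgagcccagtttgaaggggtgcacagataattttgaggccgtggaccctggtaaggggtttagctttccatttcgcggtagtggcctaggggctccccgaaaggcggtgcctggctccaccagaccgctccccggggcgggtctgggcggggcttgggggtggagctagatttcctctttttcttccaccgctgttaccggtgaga
BNIP3 held 5 matches, including a CACGTG, ANKRD37 held 4, EGLN3 held 1, and this VEGFA window held 0. A second annotated VEGFA start, at chr17:46025164-46025413 for its upstream window, had 2. That window lies downstream of the first start, within the gene, and the letters around its 2 matches read as VEGFA coding sequence. HIF1A and P4HA1 had 3 matches each, and ADM, EGLN1 and DDIT4 had 2 each. A core was therefore present in 9 of 10 windows of these genes, counting the downstream VEGFA window, and in 38.6% of all 32841 promoter windows of the same length. At least 4 matches, as in BNIP3 and ANKRD37, occurred in 2.6% of all windows. These are letter matches in a short window and show no binding, and their number was not tested against the transcript levels.

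Library totals ranged from 13328866 to 25045814 estimated counts. Levels are given as CPM, counts expressed relative to the size of each library after TMM scaling, and are not divided by gene length. Levels of different genes are therefore not compared. Plasma cell markers (SDC1, TNFRSF17, PRDM1, XBP1, JCHAIN, IRF4 and MZB1) summed to 1855 to 2260 CPM in quiescent libraries and to 3394 to 26840 CPM in 10 tumor libraries. The other 4 tumors were below every quiescent library, against their plasma cell label: spleen 1610, 1612 and 1615 and MLN 1611, at 797.8, 1344, 1076 and 1177 CPM. These 4 had summed B cell markers (among them MS4A1, CD79A, CD79B, PAX5, CR2 and FCER2) of 6819 to 8616 CPM, above the 144 to 5065 CPM of the remaining tumors. Tumors also held more RNA of markers of other cell types. All 10 macrophage markers with values were higher in tumor mice than in quiescent cells, with sums of 188.7 to 2742 CPM in tumors, 17.99 to 150.2 in quiescent and 9.35 to 21.9 in activated libraries. All 9 neutrophil, 6 erythroid and 7 stromal markers tested were also higher in tumor mice than in quiescent cells, beside 36.9% of all 11637 tested genes. Neutrophil markers summed to 14.3 to 2300 CPM in tumors and to at most 10.8 CPM in controls, with ELANE at 0 in all activated libraries. Erythroid markers summed to 12.5 to 3746 CPM in tumors and to at most 23.5 CPM in controls. Stromal markers summed to 3.82 to 398.5 CPM in tumors and to at most 6.90 CPM in controls, with LUM at 0 in all quiescent libraries and COL1A2 and PDGFRA at 0 in all activated libraries. The part of these cells in the comparisons of tumors with controls was not tested. In bulk samples, fewer cells of a type and less RNA per cell cannot be told apart. The 3 Y-linked transcripts with values summed to 348.5 to 364 CPM in quiescent and 0.504 to 0.913 CPM in activated libraries, so sex and activation cannot be told apart between the control groups. Nothing in the labels ties control libraries to different animals, so the spread among them may be technical. The p-values of comparisons with controls rest on 1 estimate of the spread that these libraries share with the 8 tumor mice.

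Activated B cells were compared with quiescent B cells to show how a normal B cell expresses these genes when it is driven to grow. Activation came with a broad rise: 7 of the 9 genes were higher and 0 were lower by edgeR's quasi-likelihood test at an adjusted p of 0.05. At an unadjusted p of 0.05 the count was also 7 higher, and DESeq2 called 7 higher and 0 lower. Of all 11637 genes tested, 25.5% were called higher and 34.1% lower. The median log2 change was 1.59 over the 9 genes and -0.15 over all genes. In 8 of the 9 genes every activated library was above every quiescent library, which was also so for 32.1% of all tested genes, while in 35.2% every activated library was below. LPS, the hours in culture and the Y-linked difference cannot be told apart here.

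**Figure D1:**
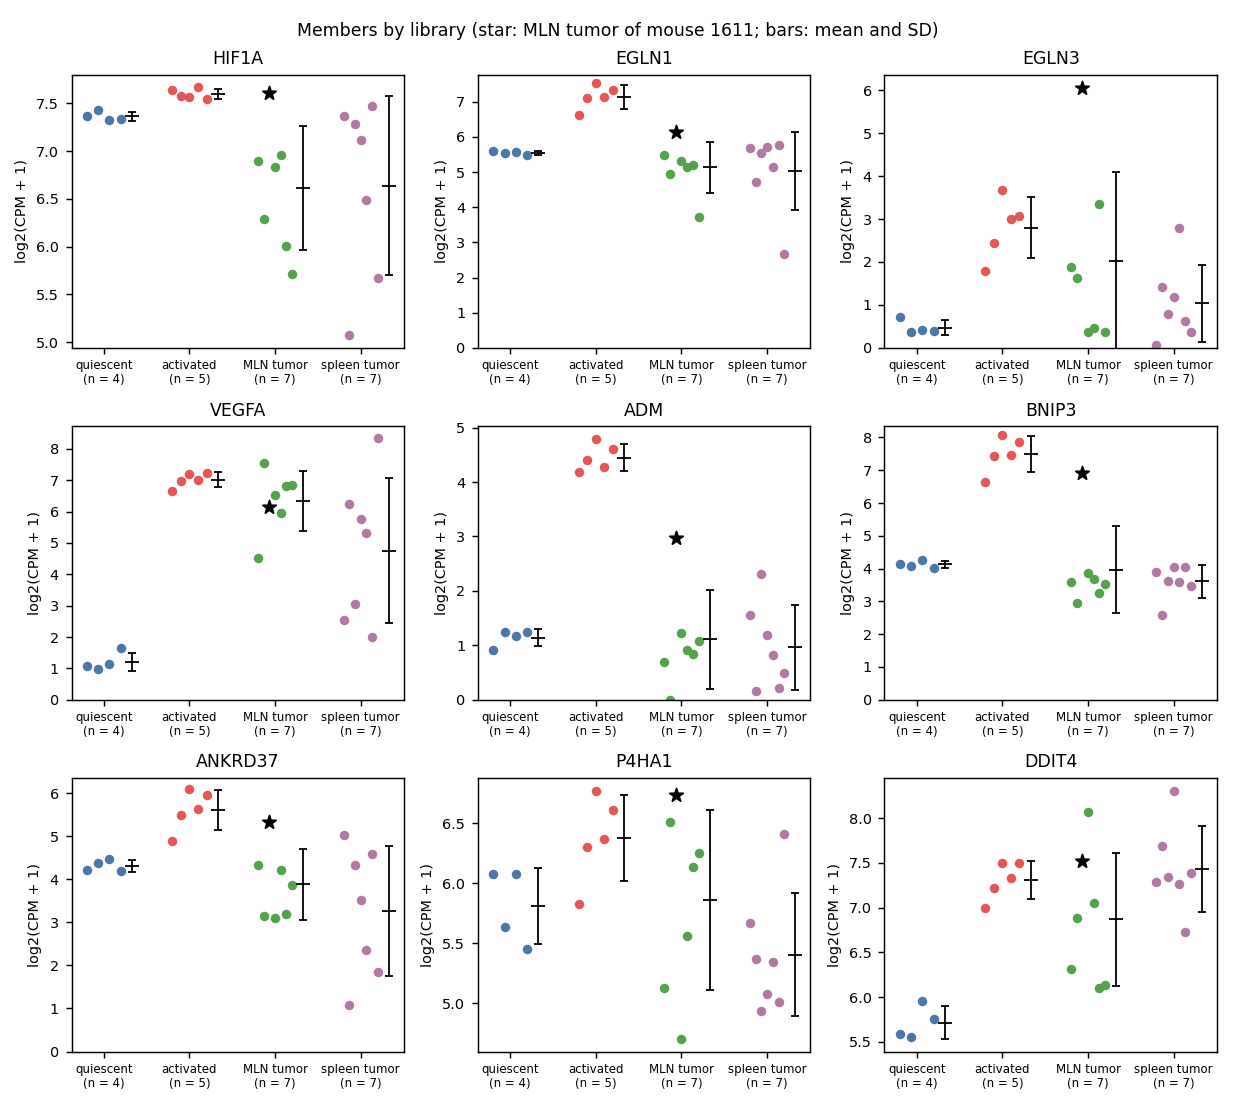
Level of each of the 9 genes in every library, as log2(CPM + 1), in 4 quiescent, 5 activated, 7 MLN tumor and 7 spleen tumor libraries, with the mean and SD of each group and a star on the MLN tumor of mouse 1611. Activated libraries sit above all quiescent libraries for every gene except P4HA1, as they do in 32.1% of all tested genes, and the star is the highest tumor for 7 genes.

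The HIF1A transcript itself moved little. It was at 165, 172, 159.7 and 161 CPM in quiescent and at 198.0, 190.3, 189, 203 and 186.5 CPM in activated libraries. The groups did not overlap, yet the log2 difference of 0.17 ± 0.20 (SE) did not pass the test (adjusted p = 0.47). In this fit the controls shared 1 estimate of the spread with the tumor mice. HIF1A had an SD of 30.6 CPM over the 8 tumor mice, against 5.53 in quiescent and 6.88 in activated libraries. With the controls fitted alone and equal numbers as a replicate block, HIF1A passed (edgeR's adjusted p = 0.000508). ARNT, the partner subunit, fell by 0.32 ± 0.07 on the log2 scale (adjusted p = 0.00124). VHL, which directs HIF1A protein to degradation, rose by 0.42 ± 0.13 (adjusted p = 0.0126).

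The 2 oxygen sensors rose. EGLN1, the main HIF prolyl hydroxylase in most cells, was at 47.4, 45.7, 46.5 and 43.6 CPM in quiescent and 97.0, 136, 184, 141 and 161 CPM in activated libraries. Every activated library was above every quiescent library, with a log2 change of 1.59 ± 0.33 (adjusted p = 0.000528). EGLN3, a hydroxylase that is itself a HIF target and forms a feedback loop, went from 0.654, 0.289, 0.326 and 0.311 CPM to 2.48, 4.45, 11.8, 7.02 and 7.48 CPM. Its log2 change was 4.0 ± 1.32 (adjusted p = 0.0155), again without overlap. The size depended on the analysis, from 1.05 to 9.03 over 18 alternatives, and limma on log2(CPM + 5) did not call it (1.05, adjusted p = 0.0714). EGLN2, the family member that is not a listed gene here, averaged 132.7 ± 8.80 CPM (SD, n = 4) before and 107.5 ± 4.60 CPM (SD, n = 5) after activation. Its groups did not overlap, but the difference did not pass in the same shared fit (adjusted p = 0.0585).

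The secreted factors had the 2 largest log2 changes. VEGFA, the principal growth signal for blood vessels, was at 1.09, 0.989, 1.20 and 2.12 CPM in quiescent and at 99.2, 126.5, 147, 128 and 149 CPM in activated libraries. Its log2 change was 6.55 ± 0.81 (adjusted p = 3.68e-06). ADM, which encodes the vasodilator peptide adrenomedullin, rose from 0.872, 1.36, 1.25 and 1.37 CPM to 17.3, 20.2, 26.6, 18.3 and 23.3 CPM, a log2 change of 4.05 ± 0.65 (adjusted p = 4.92e-05). Neither gene's groups overlapped.

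BNIP3, a mitochondrial outer membrane protein that promotes removal of mitochondria, was at 16.7, 15.9, 18.3 and 15.2 CPM in quiescent libraries. Activated libraries held 98.8, 171.6, 266.5, 177 and 232.5 CPM, and the log2 change was 3.46 ± 0.60 (adjusted p = 0.00012). All activated values exceeded all quiescent values. Its paralog BNIP3L rose by 1.15 ± 0.22 on the log2 scale (adjusted p = 0.00027). BNIP3L averaged 143.0 ± 5.70 CPM (SD, n = 4) in quiescent cells, against 331 ± 118 CPM (SD, n = 5) once activated.

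DDIT4, an inhibitor of the growth kinase complex mTORC1 that hypoxia, glucocorticoids and stress signals can induce, was at 47.1, 46.2, 61.3 and 53.3 CPM in quiescent and 126.7, 148, 180.5, 159.6 and 180.1 CPM in activated libraries. The groups were fully separate, with a log2 change of 1.55 ± 0.30 (adjusted p = 0.000316). ANKRD37, an ankyrin repeat protein and known HIF1 target, went from 17.5, 19.7, 21.2 and 17.2 CPM to 28.8, 44.1, 67.3, 48.5 and 61.2 CPM. Its log2 change was 1.34 ± 0.31 (adjusted p = 0.00157). P4HA1, the catalytic subunit of the enzyme that hydroxylates collagen prolines, was at 66.5, 48.7, 66.6 and 42.7 CPM against 55.8, 77.8, 108.4, 81.8 and 96.7 CPM. Here the groups overlapped, and the log2 difference of 0.52 ± 0.31 did not pass (adjusted p = 0.16).

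Activated libraries differed among themselves. Activated library 1 was the lowest of the 5 for 8 of the 9 genes, and library 3 was the highest for 7. Over all tested genes library 1 was the lowest for 23.3% and library 3 the highest for 17.8%. BNIP3 spanned 2.7-fold between these 2 libraries and EGLN3 4.76-fold, whereas HIF1A spanned 1.09-fold between its own extremes. Of 10 other hypoxia genes always followed, EPAS1, VHL, SLC2A1, PDK1, BNIP3L and NDRG1 were likewise lowest in library 1 and highest in library 3. NDRG1 ranged from 36.1 to 110.5 CPM there, and PDK1 from 77.9 to 209.9 CPM. Library 1 also had the largest total, at 25045814 estimated counts. The part of depth or culture in this order was not tested.

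Tumors were compared with quiescent B cells to place the malignant cells against resting cells of their lineage. VEGFA, DDIT4 and EGLN3 were higher in tumor mice and HIF1A was lower, while the other 5 genes did not pass. Tumors of a mouse were summed, giving 8 tumor mice against 4 quiescent libraries. By edgeR, 3 of the 9 genes were called higher and 1 lower, beside 36.9% of all tested genes higher and 31.9% lower. The median log2 change was 0.19 over the 9 genes and 0.08 over all genes. Without the MLN tumor of mouse 1611 the count was 3 higher and 2 lower, with BNIP3 added, and without all 4 tumors low in plasma cell markers it was 3 higher and 3 lower, with BNIP3 and ANKRD37 added. The quiescent libraries are the same as in the comparison above, so the 2 results are not independent.

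VEGFA rose most. Tumor mice ranged from 7.63 to 214 CPM with a median of 62.1, and the quiescent libraries from 0.989 to 2.12 CPM. No tumor mouse overlapped with the controls, and the log2 change was 5.68 ± 0.77 (adjusted p = 1.39e-05). Among single tumors, MLN tumors ranged from 22.2 to 187 CPM (median 92.1) and spleen tumors from 3.03 to 325 CPM (median 39.2). The lowest spleen tumors, at 3.03, 4.77 and 7.33 CPM, were those of mice 1615, 1610 and 1612, 3 of the libraries low in plasma cell markers. Without those and MLN 1611, the log2 change was 6.29.

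DDIT4 was at 80.2 to 291 CPM in tumor mice (median 142.4) and at 46.2 to 61.3 CPM in quiescent cells, with no overlap. Its log2 change was 1.503 ± 0.28 (adjusted p = 0.00026), and it passed in all 25 alternative analyses. EGLN3 was higher by 4.01 ± 1.28 (adjusted p = 0.0112), but this size rested on 1 tumor. Mouse 1611 had 39.7 CPM and the other 7 mice 0.314 to 4.39 CPM, of which the lowest lay within the quiescent range of 0.289 to 0.654. Without the MLN tumor of mouse 1611 the log2 change was 2.21 (adjusted p = 0.0104), and it did not pass in 4 of 25 alternatives. These were limma on log2(CPM + 1) (1.36, adjusted p = 0.0833) and on log2(CPM + 5) (0.66, adjusted p = 0.179), limma after quantile normalization (0.52, adjusted p = 0.524) and edgeR on spleen tumors alone (1.90, adjusted p = 0.0811).

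HIF1A was lower in tumor mice, at 118 ± 30.6 CPM (SD, n = 8) against 164 ± 5.53 (SD, n = 4). The log2 difference was -0.53 ± 0.18 (adjusted p = 0.0142). Mouse 1612, at 161 CPM, lay within the quiescent range of 159.7 to 172 CPM, and mouse 1616 was lowest, at 53.3 CPM. Without the 4 tumors low in plasma cell markers the difference was -1.01 (adjusted p = 0.00259). The call was lost with upper-quartile factors (adjusted p = 0.0706), with quantile normalization (0.121), with 14 independent tumor libraries (0.117) and in spleen tumors alone (0.199). ARNT fell more uniformly, by 0.65 ± 0.07 on the log2 scale (adjusted p = 8.82e-07) and averaged 69.0 ± 5.32 CPM (SD, n = 8) in tumor mice, against 103.8 ± 4.66 CPM (SD, n = 4). EPAS1, the HIF2 alpha subunit typical of endothelium and macrophages, rose by 1.44 ± 0.46 (adjusted p = 0.0105), from 1.19 ± 0.21 CPM to 3.33 ± 1.86 CPM. The macrophage markers given above were also higher in tumor mice than in quiescent cells, and their part was not tested.

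BNIP3 illustrates how much a single tumor weighed. Mouse by mouse, BNIP3 was at 10.9 to 14.5 CPM in 7 mice and at 72.9 CPM in mouse 1611, against 15.2 to 18.3 CPM in quiescent libraries. All 7 of those mice were below every quiescent library and mouse 1611 was above. With all mice the log2 difference was 0.19 ± 0.49 (adjusted p = 0.739), and without the MLN tumor of mouse 1611 it was -0.63 (adjusted p = 0.0243). EGLN1 had a median of 44.8 CPM in tumor mice, at a log2 difference of -0.25 ± 0.28 from quiescent cells (adjusted p = 0.445), with mouse 1616 far below the rest at 9.70 CPM and groups that overlapped. ADM (0.42 ± 0.53, adjusted p = 0.497), ANKRD37 (-0.28 ± 0.28, adjusted p = 0.371) and P4HA1 (-0.18 ± 0.28, adjusted p = 0.585) also overlapped with the controls. ADM was not detected in MLN tumor 1610, which allows up to 3 counts, or 0.171 CPM of that library's total.

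**Figure D2:**
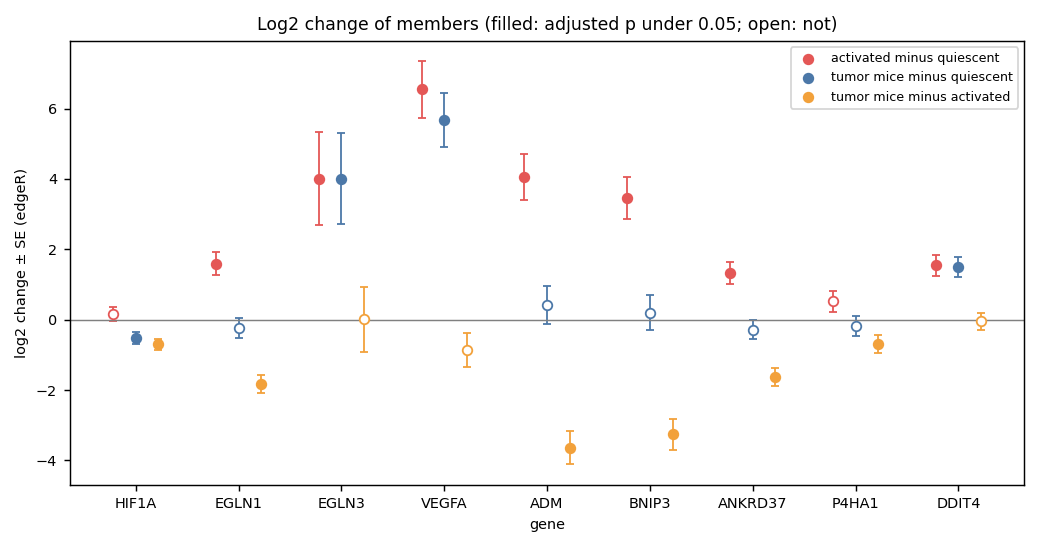
Log2 change ± SE of the 9 genes in 3 comparisons by edgeR: activated (n = 5) against quiescent (n = 4), tumor mice (n = 8) against quiescent, and tumor mice against activated. Filled points passed an adjusted p of 0.05. BNIP3 and ADM are high in the first comparison, near 0 in the second and low in the third.

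Tumors were next set against activated B cells, which like them are dividing. Proliferation markers (MKI67, TOP2A, BIRC5, CCNB1 and CDC6) summed to 675.6 to 961 CPM in activated and 411.6 to 1882 CPM in tumor libraries. ADM, BNIP3, EGLN1, ANKRD37, HIF1A and P4HA1 were lower in tumor mice, and VEGFA, DDIT4 and EGLN3 did not pass. By edgeR, 6 of the 9 genes were called lower and 0 higher, beside 27% of all tested genes lower and 36.2% higher. At an unadjusted p of 0.05 the count was also 6, and DESeq2 called 6 lower and 0 higher. The median log2 change was -0.87 over the 9 genes and 0.09 over all genes. Without the MLN tumor of mouse 1611 the count was 7 lower, with EGLN3 added, and without all 4 tumors low in plasma cell markers it was 5 lower, with P4HA1 lost (-0.59, adjusted p = 0.0783). The activated libraries are shared with the first comparison and the tumors with the second.

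ADM showed the largest fall: tumor mice held 0.439 to 4.15 CPM and activated libraries 17.3 to 26.6 CPM. The log2 change was -3.64 ± 0.47 (adjusted p = 7.16e-06), and no tumor library reached the lowest activated one. BNIP3 changed by -3.26 ± 0.45 (adjusted p = 1.37e-05). Its 7 lower mice were at most 14.5 CPM, and the MLN tumor of mouse 1611, at 119.7 CPM, was the only tumor library within the activated range of 98.8 to 266.5 CPM. EGLN1 changed by -1.84 ± 0.26 (adjusted p = 1.67e-05), with all tumor libraries at or below 69.3 CPM and activated libraries from 97.0 CPM. ANKRD37 changed by -1.62 ± 0.25 (adjusted p = 4.15e-05). Its tumor mice reached 23.7 CPM and its activated libraries began at 28.8 CPM, although 2 single tumors, MLN 1611 at 39.2 and spleen 1610 at 31.7 CPM, lay above that.

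HIF1A was lower by -0.70 ± 0.16 (log2, adjusted p = 0.00149), and every tumor mouse (53.3 to 161 CPM) was below every activated library (186.5 to 203 CPM), while the single MLN tumor of mouse 1611 was at 194 CPM. With the Y-linked level as a covariate its difference was -0.40 (adjusted p = 0.282). P4HA1 was lower by -0.70 ± 0.26 (adjusted p = 0.0263), with overlapping groups of 28.8 to 82.9 CPM in tumor mice and 55.8 to 108.4 CPM in activated cells. In MLN tumors alone this was -0.40 (adjusted p = 0.26), and leaving out activated library 3 gave an adjusted p of 0.0792 and library 5 one of 0.0612.

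DDIT4 differed by -0.05 ± 0.24 (adjusted p = 0.877) from activated cells, with means of 152.9 ± 68.0 CPM (SD, n = 8) and 159.0 ± 22.8 CPM (SD, n = 5). VEGFA differed by -0.87 ± 0.49 (adjusted p = 0.129). Only mouse 1616, at 214 CPM, exceeded the activated range of 99.2 to 149 CPM, and the other 7 mice, at up to 76.2 CPM, were below it. Without mouse 1616 the VEGFA change was -1.45 (adjusted p = 0.00307). EGLN3 differed by 0.01 ± 0.92 (adjusted p = 0.991) with all mice and by -1.79 (adjusted p = 0.00898) without the MLN tumor of mouse 1611.

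MLN and spleen tumors were compared to ask whether the site of the tumor mattered. No gene was called by edgeR, neither among the 9 nor among all 11637 (0% higher and 0% lower). At an unadjusted p of 0.05, edgeR passed 511 genes, among them 1 of the 9, EGLN3. Its log2 difference was 2.92 ± 1.29, MLN minus spleen (edgeR's adjusted p = 1, unadjusted 0.0403). DESeq2 called 16 genes higher and 4 lower in MLN tumors, and both DESeq2 and limma called 0 of the 9. Without the MLN tumor of mouse 1611 the EGLN3 difference was 0.73. The standard errors were wide: 0.86 on the log2 scale for VEGFA, around a difference of 0.36, and 0.38 for HIF1A, around -0.12.

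Within mice, the 2 sites could differ greatly and in either direction. VEGFA was at 187 CPM in the MLN and 4.77 CPM in the spleen of mouse 1610, and at 112 and 3.03 CPM in mouse 1615. Mouse 1616 went the other way, with 114 CPM in the MLN and 325 CPM in the spleen. In all, VEGFA was higher in the MLN tumor in 4 of 6 mice. Those of mice 1613 and 1614 were closer, at 92.1 and 52.8 CPM and at 60.9 and 39.2 CPM, and mouse 1611 had 69.3 and 75.3 CPM.

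HIF1A ran the other way in mice 1610 and 1615. It was lower in the MLN than in the spleen of mouse 1610 (77.3 against 165 CPM) and mouse 1615 (63.3 against 176 CPM). In mouse 1611 it was higher in the MLN, at 194 against 32.6 CPM. Mouse 1613 had 113 and 138 CPM, mouse 1614 had 123 and 89.0 CPM, and mouse 1616 had 51.7 and 49.97 CPM, so 3 of 6 pairs were higher in the MLN. DDIT4 was the single gene with a uniform direction: it was higher in the spleen tumor of all 6 mice. The pairs, MLN before spleen, were 117 and 155 CPM, 183 and 205 CPM, 268 and 316 CPM, 131 and 153 CPM, 67.7 and 104.8 CPM, and 69.5 and 166 CPM, in order of mouse number. The log2 difference of -0.47 ± 0.33 did not pass (adjusted p = 1), nor did it with the mouse as a block. How many of all tested genes had a uniform direction over the 6 pairs was not counted, so the order of DDIT4 is only a description.

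**Figure D3:**
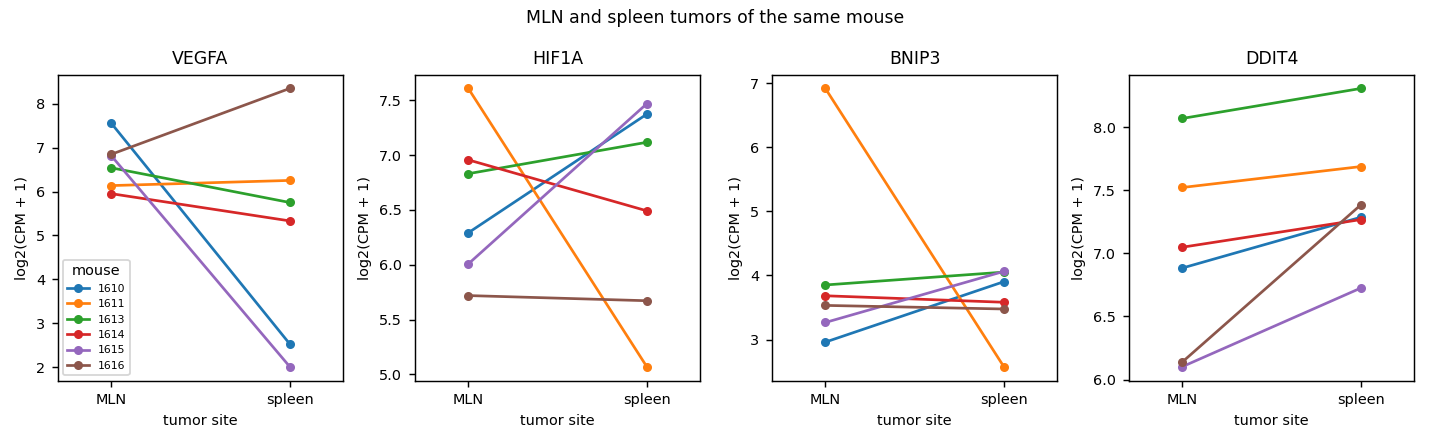
Levels of VEGFA, HIF1A, BNIP3 and DDIT4, as log2(CPM + 1), in the MLN and spleen tumor of 6 mice, with a line joining the tumors of a mouse. DDIT4 lines all rise toward the spleen, VEGFA and HIF1A lines cross, and BNIP3 lies between 6.78 and 15.7 CPM in 5 mice and falls from 119.7 to 4.97 CPM in mouse 1611.

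The MLN tumor of mouse 1611 stood apart. It was singled out after its values were seen. It was the highest of the 14 tumors for 7 of the 9 genes, with VEGFA (rank 7) and DDIT4 (rank 4) as the exceptions. Across all tested genes it was the highest tumor for 680, or 5.8%. Of the other tumors, spleen 1613 was highest for 1 of the 9 genes and spleen 1616 for 1.

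EGLN3 in this tumor was at 65.8 CPM, 90.9 times the median of the other 13, and above the activated maximum of 11.8 CPM. BNIP3 was at 119.7 CPM, 10.9 times that median, where the next tumor had 15.7 CPM. ADM at 6.89 CPM was 8.66 times the median, ANKRD37 at 39.2 CPM 3.74 times, and P4HA1 at 105.4 CPM 2.61 times. EGLN1 at 69.3 CPM and HIF1A at 194 CPM were 1.93 and 1.72 times the median. The spleen tumor of the same mouse was the lowest of all 14 for BNIP3 (4.97 CPM), HIF1A (32.6 CPM) and ANKRD37 (1.12 CPM).

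Part of the wider hypoxia response was high in the same library. It was the highest tumor for 9 of 19 glycolytic targets: SLC2A1, PFKFB3, PFKL, ALDOA, TPI1, PGAM1, ENO1, PKM and SLC16A3. The glucose transporter SLC2A1 was at 225 CPM, against at most 67.1 in the other 13. The lactate exporter SLC16A3 was at 128 CPM against at most 23.3, and the glycolytic regulator PFKFB3 at 505.6 CPM, where the median of the others was 64.5. It was also the highest for 12 of 36 other targets, including HILPDA, which promotes lipid droplet storage (99.0 CPM against at most 14.4), NDRG1 (155.5 against at most 65.4) and the transcription factor BHLHE40 (129.9 against at most 38.7). Not every target joined in. PDK1, which keeps pyruvate out of mitochondria, ranked 8 of 14 at 44.7 CPM, and CA9, a carbonic anhydrase much used as a hypoxia marker, ranked 6 at 0.984 CPM. Others were low in this tumor. ANGPTL4 ranked 12 at 3.51 CPM, where the median of the other 13 was 11.8 CPM. COX4I2 ranked 11 at 2.78 CPM, against a median of 15.5 CPM. Of the 15 genes of HIF subunits and oxygen sensing, only the ubiquitin ligase SIAH1 was highest there. Summed neutrophil markers in this tumor were 693.9 CPM, the highest of the MLN tumors but below the 2300 and 1480 CPM of spleen tumors 1611 and 1614. Macrophage markers were at 1246 CPM, near the MLN median of 1228, and stromal markers at 129.9 CPM, behind 398.5 and 386 CPM in MLN tumors 1616 and 1614. Their part in these levels was not tested.

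**Figure D4:**
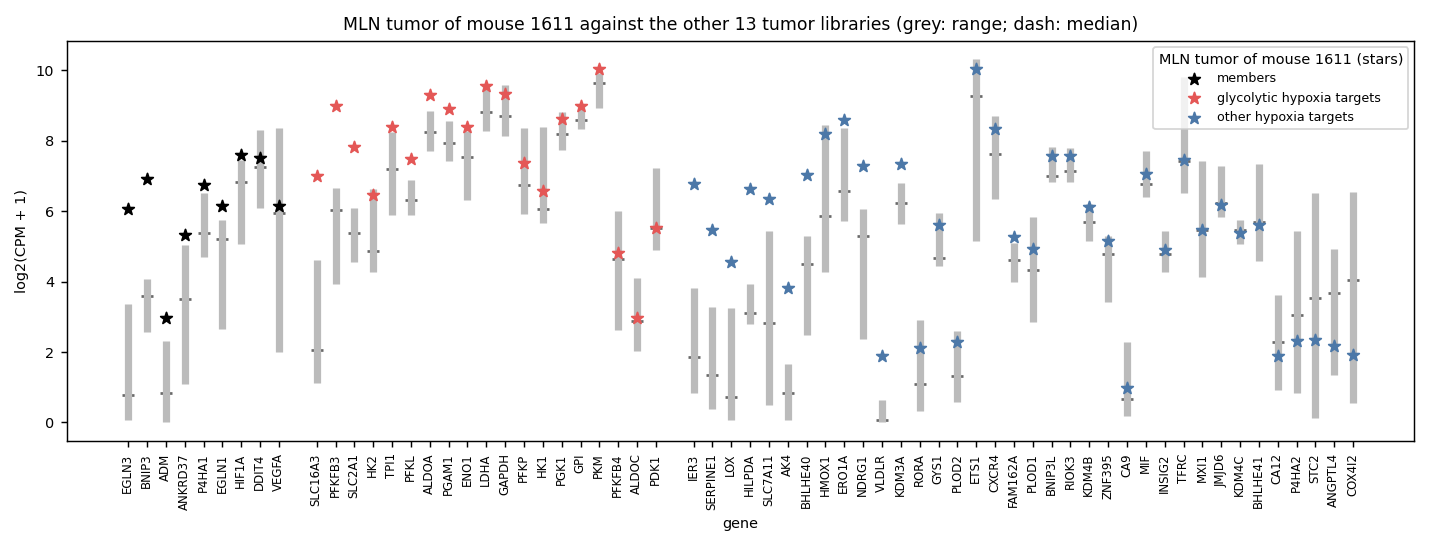
Levels of the 9 genes, 19 glycolytic targets and 36 other hypoxia targets, as log2(CPM + 1), in the MLN tumor of mouse 1611 (stars) and in the other 13 tumor libraries (grey range, dash at the median). Stars lie above the grey range for 7 of the 9 genes, 9 glycolytic targets and 12 other targets.

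Across tumors the 9 genes did not vary together. Correlations are Pearson's r of log2(CPM + 1) over the 14 tumor libraries, with the value over 13 without MLN 1611 after it, and are descriptions: libraries share mice and scaling. HIF1A ran with ANKRD37 (0.84, then 0.81) and EGLN1 (0.76, then 0.72) and opposite to VEGFA (-0.66, then -0.75). BNIP3 ran with ADM (0.77, then 0.48) and with EGLN3, but the latter turned from 0.63 to -0.40 once MLN 1611 was left out. VEGFA and BNIP3, both classical HIF targets, had r = -0.13, then -0.52.

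Several of these patterns moved with the cell type markers. HIF1A correlated at 0.93 (0.93 without MLN 1611) with the summed B cell markers and at -0.80 (-0.77) with the plasma cell markers. ANKRD37 correlated at 0.90 (0.91) with B cell markers, and BNIP3 at 0.55 (0.81). VEGFA correlated at 0.86 (0.96) with plasma cell markers, and EGLN1 at -0.77 (-0.75). MLN 1611 was the exception for VEGFA: it had few plasma cell markers, 1177 CPM, yet 69.3 CPM of VEGFA, where the other tumors low in these markers had at most 7.33. Activated B cells combined the same 2 features, with plasma cell markers of 1160 to 1195 CPM and at least 99.2 CPM of VEGFA. DDIT4 followed neither list, at 0.08 (0.05) with B cell and -0.19 (-0.15) with plasma cell markers. EGLN3 was also weak, at -0.05 (-0.43) and -0.21 (0.13). P4HA1 had -0.31 (-0.50) and 0.37 (0.66), and ADM 0.56 (0.55) and -0.53 (-0.42). With dendritic cell markers EGLN1 correlated at 0.78 (0.82) and P4HA1 at -0.65 (-0.76). The part of B lineage composition in the tumor comparisons was not tested.

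**Figure D5:**
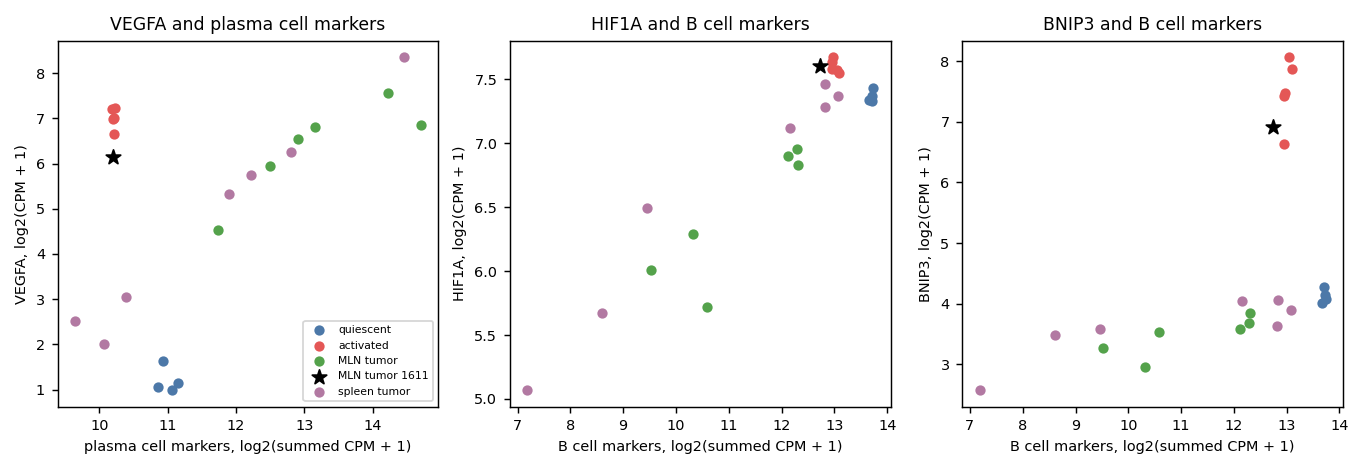
VEGFA against summed plasma cell markers, and HIF1A and BNIP3 against summed B cell markers, as log2 of CPM + 1, in 23 libraries colored by group. Among tumors VEGFA rises with plasma cell markers and HIF1A with B cell markers, and MLN tumor 1611 (star) lies beside the activated libraries.

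The genes most like each of the 9 over the 14 tumors were found from the same correlation, with r over all 23 libraries in brackets. HIF1A was closest to IL4R at 0.979 (0.896), CD69 at 0.977 (0.874) and TPM4 at 0.977 (0.954), of which IL4R and CD69 are surface proteins of lymphocytes. VEGFA was closest to RBFOX2 at 0.962 (0.595), SDC1 at 0.948 (0.131) and FNDC3B at 0.947 (0.584). SDC1 is the plasma cell marker syndecan-1 and belongs to the marker list used above. EGLN1 was close to IRF2BP2 at 0.987 (0.905) and ARL6IP1 at 0.957 (0.781). EGLN3 was closest to JUNB at 0.949 (0.561), G0S2 at 0.926 (0.672) and SNAP23 at 0.920 (0.872).
BNIP3 was closest to FBXL5 at 0.956 (0.092), SLC2A1 at 0.936 (0.947) and FCRLB at 0.932 (0.123), so that SLC2A1 alone of these stayed close once control cells were added. ANKRD37 was closest to MIDN at 0.945 (0.339) and to the B cell surface receptors FCER2 at 0.944 (0.906) and CR2 at 0.938 (0.478), both in the B cell list. P4HA1 was closest to the heat shock profile HSPA1A/HSPA1B, which carries 2 names, at 0.908 (0.221), then PLIN3 at 0.885 (0.635) and ETS2 at 0.850 (0.495). ADM was closest to COL4A5 at 0.881 (-0.111), TBK1 at 0.877 (0.612) and ARHGAP28 at 0.846 (-0.328). DDIT4 was closest to SSH2 at 0.911 (-0.222), the oxygen sensor EGLN2 at 0.828 (0.283) and the surface glycoprotein CD200 at 0.816 (0.045).

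The remaining genes of the pathway were read from lists made for this purpose. Of all 11637 tested genes, 25.5% were higher and 34.1% lower on activation. In tumor mice 36.9% were higher and 31.9% lower than in quiescent cells, and 36.2% higher and 27% lower than in activated cells. Glycolytic hypoxia targets moved as a block on activation: 17 of 19 were higher and 0 lower in activated than in quiescent cells, with a median log2 change of 2.53. The mean level of SLC16A3 was 0.425 ± 0.085 CPM (SD, n = 4) before and 98.7 ± 35.1 CPM (SD, n = 5) after activation, and its log2 change was 7.78 ± 1.33 (adjusted p = 0.000101). ALDOC, a glycolytic aldolase, rose by 4.44 ± 0.37 (adjusted p = 5.47e-08). In tumor mice 10 of 19 were higher and 0 lower than in quiescent cells (median 0.74), led by SLC16A3 (5.06 ± 1.21, adjusted p = 0.00164) and the hexokinase HK2 (2.26 ± 0.30, adjusted p = 1.36e-05). Against activated cells 0 were higher and 16 lower (median -1.89), with ALDOC at -3.86 ± 0.27 (adjusted p = 1.19e-08) and SLC16A3 at -2.71 ± 0.75 (adjusted p = 0.00458). The size of the SLC16A3 changes depended on mouse 1611. Tumor mice had a median of 4.187 and a maximum of 79.98 CPM. MLN tumor 1611 was at 128 CPM and the other 13 tumors had a median of 3.165 CPM.

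SLC2A1 averaged 71.5 ± 8.64 CPM (SD, n = 4) in quiescent cells, 186 ± 34.3 CPM (SD, n = 5) in activated cells and 56.4 ± 35.7 CPM (SD, n = 8) in tumor mice. It rose on activation by 1.32 ± 0.35 (adjusted p = 0.00386), was lower in tumors than in activated cells by -1.71 ± 0.28 (adjusted p = 6.84e-05), and did not pass between tumors and quiescent cells (-0.40 ± 0.31, adjusted p = 0.257). MLN tumor 1611 weighed on the tumor mean of SLC2A1, at 225 CPM. The other 13 tumors had a median of 40.4 and at most 67.1 CPM, against 60.1 to 79.9 CPM in quiescent libraries. PDK1 was higher in tumor mice than in quiescent cells (0.74 ± 0.30, adjusted p = 0.0376) and lower than in activated cells (-1.45 ± 0.27, adjusted p = 0.000178).

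Other hypoxia targets were mixed. Of 36 tested, 20 were higher and 6 lower in tumor mice than in quiescent cells (median 1.33), beside 36.9% and 31.9% of all tested genes. Against activated cells 13 were higher and 11 lower in tumor mice (median 0.06), beside 36.2% and 27%. On activation 15 were higher and 5 lower (median 0.67), beside 25.5% and 34.1%. P4HA2, a paralog of P4HA1, was at 0.107 ± 0.108 CPM in quiescent, 2.26 ± 0.90 CPM in activated cells and 10.95 ± 13.1 CPM in tumor mice, and rose in tumor mice against activated cells by 2.28 ± 0.69 (adjusted p = 0.00837). P4HA1 changed in the opposite direction in that comparison. COX4I2, the hypoxia-linked cytochrome oxidase subunit, was at 1.70 to 91.2 CPM in tumor mice, at most 0.083 CPM in activated cells, and listed at 0 in every quiescent library. LOX, which cross-links collagen and is made mostly by stromal cells, was at 0.118 to 13.6 CPM in tumor mice and listed at 0 in every activated library. AK4, a mitochondrial adenylate kinase, was at 0.253 ± 0.067 CPM (SD, n = 4) in quiescent cells, 65.0 ± 24.3 CPM (SD, n = 5) in activated cells and 1.84 ± 2.77 CPM (SD, n = 8) in tumor mice. It was lower in tumors than in activated cells (-5.11 ± 0.70, adjusted p = 1.22e-05), as was the lipoprotein receptor VLDLR (-3.04 ± 0.99, adjusted p = 0.0133). AK4 and PLOD2, a collagen lysyl hydroxylase, rose on activation (adjusted p = 2.05e-05 and 0.000193). PLOD2 averaged 0.138 ± 0.241 CPM (SD) in the 4 quiescent and 3.88 ± 1.60 CPM (SD) in the 5 activated libraries. The chemokine receptor CXCR4 and the transcription factor ETS1 fell on activation, by 2.56 ± 0.26 (adjusted p = 4.53e-07) and 1.61 ± 0.37 (adjusted p = 0.00146). ETS1 and NDRG1 were lower in tumor mice than in quiescent cells, at -1.27 ± 0.33 (adjusted p = 0.00288) and -1.11 ± 0.40 (adjusted p = 0.0203). CA9 was higher in tumor mice (1.12 ± 0.67 CPM, SD, n = 8) than in quiescent (0.200 ± 0.089 CPM, SD, n = 4, adjusted p = 0.00122 by edgeR) and activated cells (0.413 ± 0.203 CPM, SD, n = 5, adjusted p = 0.012 by edgeR), though its highest mouse had 2.40 CPM.

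Of 15 HIF subunits and oxygen-sensing genes tested, 6 were higher and 6 lower in tumor mice than in quiescent cells, beside 36.9% and 31.9% of all tested genes. Against activated cells 3 were higher and 9 lower in tumor mice, beside 36.2% and 27%. On activation 7 were higher and 4 lower, beside 25.5% and 34.1%. The HIF coactivators EP300 and CREBBP were lower in tumor mice than in quiescent cells, at -1.10 ± 0.10 (adjusted p = 2.99e-07) and -1.06 ± 0.12 (adjusted p = 3.61e-06). They also fell on activation, by 0.70 ± 0.11 (adjusted p = 4.7e-05) and 0.65 ± 0.14 (adjusted p = 0.000783). CITED2, which competes with HIF1A for these coactivators, rose in tumor mice by 2.26 ± 0.61 (adjusted p = 0.00393), and its mean of 169.8 ± 206 CPM (SD, n = 8) there compares with 34.2 ± 2.24 CPM (SD, n = 4). SIAH2, a ligase that degrades EGLN proteins, rose on activation by 2.002 ± 0.20 (adjusted p = 3.45e-07) and was lower in tumors than in activated cells by -1.28 ± 0.16 (adjusted p = 3.65e-06), as was the VHL partner ELOB (-0.72 ± 0.07, adjusted p = 3.35e-07). HIF1AN, which hydroxylates an asparagine of HIF1A, fell in tumor mice by 0.52 ± 0.08 against quiescent cells (adjusted p = 4.05e-05). VHL was lower in tumor mice by -0.28 ± 0.12 (adjusted p = 0.0489). HIF3A was at most 0.187 CPM in quiescent cells and 0.206 to 8.94 CPM in tumor mice.

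VEGFA's relatives and receptors were measured beside it. Of 7 tested, 5 were higher and 0 lower in tumor mice than in quiescent cells, beside 36.9% and 31.9% of all tested genes. On activation 2 were higher and 3 lower, beside 25.5% and 34.1%. The co-receptor NRP2 rose on activation by 2.15 ± 0.39 (adjusted p = 0.000164) and was lower in tumors than in activated cells by -2.49 ± 0.31 (adjusted p = 4.07e-06). The ligand VEGFB rose on activation by 0.83 ± 0.14 (adjusted p = 0.000124). The receptor KDR was at 1.26 to 9.58 CPM in tumor mice, 0.055 to 0.996 CPM in quiescent cells and listed at 0 in every activated library. FLT4 was at 0.313 to 1.998 CPM in tumor mice and listed at 0 in activated cells, and NRP1 was at 2.12 to 14.8 CPM in tumor mice and at most 0.048 CPM in activated cells. These 3 are typical of endothelial and myeloid cells. Summed endothelial markers were 2.71 to 23.4 CPM in tumors, 1.85 to 3.92 CPM in quiescent and 0.672 to 2.58 CPM in activated cells, with EMCN at 0 in all control libraries and TEK at 0 in all activated ones. Their part was not tested. For the adrenomedullin receptor, CALCRL, its core, was lower in tumor mice (-1.73 ± 0.35, adjusted p = 0.000504) and in activated cells (-1.10 ± 0.40, adjusted p = 0.0263) than in quiescent cells. RAMP1, an accessory chain that mainly directs CALCRL to another peptide, was at 0.988 to 7.62 CPM in tumor mice and at most 0.413 CPM in controls.

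Collagen prolyl and lysyl hydroxylase parts were higher in tumor mice for 4 of 7 genes against quiescent and 5 of 7 against activated cells, with 0 lower in either. Over all tested genes, 36.9% were higher and 31.9% lower against quiescent cells, and 36.2% higher and 27% lower against activated cells. P4HB, the partner of P4HA1, also folds secreted proteins as protein disulfide isomerase. It averaged 223.5 ± 10.4 CPM (SD, n = 4) in quiescent cells, 492.7 ± 49.6 CPM (SD, n = 5) in activated cells and 1357 ± 1229 CPM (SD, n = 8) in tumor mice, a log2 change of 1.47 ± 0.44 against activated cells (adjusted p = 0.00746). The list of the DDIT4 axis held mTORC1 inhibitors and also the mTORC1 activator RHEB. In this list SESN2 rose on activation by 2.89 ± 0.29 (adjusted p = 3.32e-07) and in tumor mice by 1.32 ± 0.25 against quiescent cells (adjusted p = 0.000299). SESN3 and TSC1 were lower in tumor mice than in quiescent cells, at -1.26 ± 0.30 (adjusted p = 0.00163) and -0.81 ± 0.10 (adjusted p = 5.89e-06). Of the 6 genes tested, 2 (SESN2 and RHEB) were higher and 3 lower in tumor mice than in quiescent cells, beside 36.9% and 31.9% of all tested genes. On activation 1 was higher and 4 were lower, beside 25.5% and 34.1%.

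DDIT4 is also induced by other routes, and lists for 2 of them were read beside it. Their part in the level of DDIT4 was not tested. Of 9 integrated stress response targets, 9 were higher on activation (median 4.12), 6 were higher and 0 lower in tumor mice than in quiescent cells (median 2.63), and 7 were lower and 0 higher in tumor mice than in activated cells (median -1.16). TRIB3 averaged 1.13 ± 0.34 CPM (SD, n = 4) in quiescent cells, 163 ± 10.51 CPM (SD, n = 5) in activated cells and 3.23 ± 3.32 CPM (SD, n = 8) in tumor mice, a log2 change of -5.65 ± 0.55 from activated to tumor (adjusted p = 3.62e-07). ASNS, the asparagine synthetase, rose in tumor mice by 5.23 ± 0.64 against quiescent cells (adjusted p = 5.42e-06). Of 6 glucocorticoid response genes, 3 were higher and 0 lower in tumor mice than in quiescent cells, 5 higher and 0 lower than in activated cells, and 0 higher and 3 lower on activation. Beside both lists, 25.5% of all tested genes were higher and 34.1% lower on activation. In tumor mice 36.9% were higher and 31.9% lower than in quiescent cells, and 36.2% higher and 27% lower than in activated cells. The kinase SGK1 fell on activation by 3.66 ± 0.42 (adjusted p = 1.68e-06) and stood higher in tumor mice than in activated cells, by 3.53 ± 0.39 (adjusted p = 1.52e-06). No gene of any of these lists was called between MLN and spleen tumors by edgeR.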

How the data were processed

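The data are RNA sequencing profiles of 23 mouse libraries. Per the labels, RNA was extracted with RNeasy columns and made into libraries with the TruSeq Stranded Total RNA kit. Per the submitters' processing notes, Trim Galore 0.4.0 and DESeq2 were used with build GRCm39. Which tool quantified the reads, and how mouse genes received human symbols, is not stated in the sources used here. The deposited table names TPM, but its values are estimated counts per gene: they are not whole and their totals differ between libraries. Of 61651 entries 21282 carry values. Entries that share every value were joined, which gave 15881 profiles, and a name with several profiles is represented by the highest mean.

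Values were rounded and tested with edgeR 4.0.16 (quasi-likelihood, TMM, 2-sided) in R 4.3.3, over 11637 genes at 1 CPM or more in at least 4 libraries, with Benjamini-Hochberg adjustment over all genes and a threshold of 0.05. All adjusted p-values are edgeR's unless another tool is named. The SE was derived from the log2 change and the root of the F statistic and is approximate. Depth, given as library totals, covers counting error only. The scripts were tested on simulated data. Tumors of a mouse were summed, so that 8 tumor mice, 5 activated and 4 quiescent libraries shared 1 fit, and MLN and spleen tumors were compared over 14 libraries. The series' design text states that equal numbers mark tumors of the same mouse. Deviations of the paired tumors from their site means had correlations of -0.20 (mouse 1610), -0.36 (1611), 0.41 (1613), -0.29 (1614), -0.49 (1615) and 0.72 (1616). The alternatives were limma 3.58.1 on log2(CPM + 1) or log2(CPM + 5), quantile normalization, upper-quartile factors, DESeq2 1.42.0, a filter of 5 CPM or none, 14 independent tumors, single sites, a replicate block and leaving out each replicate. Leaving out MLN 1611 or the tumors low in plasma cell markers, and a Y-linked covariate, were chosen after seeing the data.

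The 9 genes, the pathway lists and the marker lists were chosen with earlier results of these data known. From each list the text names up to 2 genes with the largest change in each direction among those past the threshold, together with EPAS1, ARNT, VHL, HIF1AN, EGLN2, SLC2A1, PDK1, CA9, BNIP3L and NDRG1, and for each of the 9 genes the 3 most correlated genes over the 14 tumors. Some genes that enter these lists are not reported here. Some genes near 0 in a control group are given as levels, and a fitted change of such a gene depends on the prior count. The genes highest in MLN 1611, and those given as low there, were named after their values were seen.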

Additional observations from a re-analysis of the deposited data

Results flagged for a closer look

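Within each group of 4 to 7 libraries the highest and lowest values of the 9 genes were checked with Dixon's test, over 36 combinations of gene and group. The values were CPM without a log transform. Chance alone marks about 1 in 20 groups only if values are normal and groups independent, which was not shown here. Of the 36, 8 had a library far from the rest, each as the highest value, and this count cannot be set against that rate. Of the 8, 4 were in the MLN tumor of mouse 1611: EGLN3 at 65.8 CPM (the other 6 MLN tumors at 0.281 to 9.28), BNIP3 at 119.7 CPM (6.78 to 13.4), ADM at 6.89 CPM (0 to 1.35) and ANKRD37 at 39.2 CPM (7.53 to 19.2). Another pair was in the spleen tumor of mouse 1616, with VEGFA at 325 CPM (the other 6 spleen tumors at 3.03 to 75.3) and P4HA1 at 84.3 CPM (29.7 to 49.98). EGLN3 was high in the spleen tumor of mouse 1614, at 5.89 CPM against 0.0496 to 1.66. It was also high in quiescent library 1, at 0.654 CPM against 0.289 to 0.326, a level of few reads.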

How the results depend on the processing

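Under the alternatives 759 values kept their direction and side of the threshold, 18 lost the threshold, 8 gained it and 61 changed sign. Of these 61, 8 passed the threshold in one of the fits and 53 in neither. Among counts of the 9 genes, the count against quiescent cells dropped from 4 to 2 with spleen tumors alone (2 higher, 0 lower). Leaving out each replicate in turn gave 4 to 5 genes against quiescent cells, 5 to 7 against activated cells, 7 on activation and 0 between sites. It moved BNIP3 against quiescent cells from -0.52 to 0.29, EGLN3 against activated cells from -1.77 to 0.33 and DDIT4 from -0.25 to 0.07. Between sites it moved ADM from -0.64 to 1.09, ANKRD37 from -0.10 to 0.68, BNIP3 from -0.19 to 1.32, EGLN1 from -0.22 to 0.17 and HIF1A from -0.33 to 0.02. Sign changes that passed concerned 3 genes. ADM against quiescent cells was -0.84 with quantile normalization (adjusted p = 0.0134). BNIP3 against quiescent cells was -0.63 without MLN 1611, -0.77 without the tumors low in plasma cell markers (adjusted p = 0.0145) and -0.52 without mouse 1611 (adjusted p = 0.0228). EGLN3 against activated cells was -1.73 with quantile normalization, -2.12 with spleen tumors alone, -1.79 without MLN 1611 and -1.77 without mouse 1611. Sign changes that passed in neither fit follow. Against quiescent cells, BNIP3 was -0.18 and -0.11 with limma on log2(CPM + 1) and log2(CPM + 5), -0.57 with quantile normalization and -0.48 with spleen tumors alone. ADM was -0.09 without MLN 1611 and -0.87 without the tumors low in plasma cell markers, and P4HA1 was 0.18 with MLN tumors alone and 0.24 with the Y-linked covariate. Against activated cells, EGLN3 was -0.02 with 14 independent tumors, -3.94 with the Y-linked covariate, -0.94 and -0.39 with limma on log2(CPM + 1) and log2(CPM + 5), -0.04 with no filter and -1.17 without the tumors low in plasma cell markers. DDIT4 was 0.02 with a filter of 5 CPM, 0.74 with the Y-linked covariate, 0.21 with spleen tumors alone and 0.04 with upper-quartile factors. HIF1A on activation was -0.27 with the Y-linked covariate. Between sites, leaving out MLN 1611 gave -0.64 for ADM, -0.10 for ANKRD37 and -0.19 for BNIP3, and leaving out the tumors low in plasma cell markers gave 0.24 for HIF1A, -0.32 for VEGFA and 0.16 for EGLN1. BNIP3 was -0.15 with DESeq2 and ADM -0.01 with quantile normalization. EGLN1, whose difference rounded to 0, was 0.01 with DESeq2, with a filter of 5 CPM and with 6 pairs without the block, 0.13 with the block, 0.10 and 0.06 with limma on log2(CPM + 1) and log2(CPM + 5), and 0.09 with quantile normalization. The cause was not tested. VEGFA against activated cells passed with limma (-1.33, adjusted p = 0.0341). With the Y-linked covariate, DDIT4 (0.34, adjusted p = 0.596) and EGLN1 (1.37, adjusted p = 0.106) no longer passed on activation and P4HA1 did (2.05, adjusted p = 0.00476). That covariate separated all quiescent from all activated libraries, so this fit cannot tell sex from activation. Upper-quartile factors and quantile normalization moved the median of all genes against quiescent cells from 0.08 to 0.22 and -0.11, and the calls from 4289 higher and 3709 lower to 4967 and 2810, and to 2815 and 4302. Against activated cells the main split of 4214 higher and 3143 lower became 4745 and 2532, and 2529 and 4135. With the mouse as a replicate block, 0 of the 9 genes passed between sites, and it changed no other call there. Deviations of equally numbered control libraries from their group means had r of -0.01, -0.01, -0.02 and 0. These values cannot show whether equal numbers mark shared animals, since tumors of the same mouse had r from -0.49 to 0.72. A replicate block on the control libraries, fitted without the tumors, gave 9 genes on activation in place of 7. Levels under about 1 CPM rest on few reads and limit what can be said of EGLN3 and ADM.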

Other observations

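The spleen tumor of mouse 1616 differed from the rest for genes outside the hypoxia response too: it was the highest of the 14 tumors for 2078 of 11637 tested genes (17.9%), the largest share of any tumor. In the other tumors that share ran from 1.6% in MLN tumor 1609 to 12.2% in spleen tumor 1615. With mouse 1616 left out, the calls against activated cells were 3967 higher and 4232 lower. Y-linked transcripts summed to 128 to 305 CPM in the tumors of mice 1609, 1610, 1611, 1615 and 1616 and to 2.81 to 31.0 CPM in those of mice 1612, 1613 and 1614. Spleen tumors held more erythroid marker RNA, with a median sum of 818.8 CPM against 51.3 CPM in MLN tumors, and MLN tumors more stromal marker RNA, with a median of 76.8 CPM against at most 23.4 CPM in spleen tumors, although no marker was called between the sites by edgeR.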
